A study of Mus musculus with 24 samples.

Results

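Colon from SCID mice with transfer colitis that were given an isotype control antibody was compared with colon from untreated SCID mice, across all genes. The libraries compared are those whose own count files belong to samples labelled Isotype mAb or Normal: 8 of the 24 libraries of the study, 4 in each group. All mice were C.B-17/Icr-scid/scid, a strain without mature T or B cells, and were 7 weeks old when purchased. The Normal mice received no cells and no treatment, and the sources used here do not give the day on which their colons were taken. For the Isotype group, spleen cells of female BALB/c mice were cultured for 3 days with concanavalin A (4 μg/mL), a lectin that activates T cells, and with human IL-2 made as a recombinant protein, at 10 ng/mL. CD4+ T cells were then separated with magnetic beads and injected into a vein of female SCID mice on day 0. On day 17 the mice were divided over 5 arms by diarrhea score, and the Isotype arm was injected into the peritoneum with 0.1 mg of the control antibody per mouse every 4 days. The sources used here do not name its clone or species. RNA came from the distal colon on day 28. A second colitis control arm, Vehicle (4 libraries, 0.5% methylcellulose), was used to test where the Isotype arm differed from other mice with the same disease. An isotype antibody binds no known target in the mouse, so the contrast with Normal holds the T cell transfer, the colitis and the injections together.

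Counts per library summed to between 3052940 and 5358259 in Normal, 4102817 and 5271844 in Vehicle, and 6139216 and 10587555 in Isotype. Each Isotype library was therefore deeper than each Normal library, and in these totals depth and arm cannot be told apart. Transcripts of the mitochondrial genome made up 3.6 to 6.24% of counts in Normal, 1.99 to 2.18% in Isotype replicates 1, 2 and 4 and 4.59% in Isotype replicate 3, and the part of this difference in the results was not tested. Whether replicates are separate mice is not stated, so p-values measure the spread between these libraries. The mean chi-square per gene between 2 libraries of a group was 6.5 to 16.1 in Normal and 6.49 to 44.3 in Isotype. Counting error alone would give about 1. How much of this spread is technical was not tested. A table of the whole series gives 16 of its 24 columns the name of another library than the file with the same values, and there Normal replicates 3 and 4 carry the name of Vehicle and Isotype replicates 3 and 4 that of anti-TNF. Groups here follow each library's own file, and most list counts are given again with Isotype replicates 1 and 2 alone, on whose group both sources agree. That fit kept all 4 Normal libraries, so it does not test the labels of Normal replicates 3 and 4. Some list counts from agreed libraries in both groups are given near the end. The libraries did hold what the groups imply for T cells: transcripts of Cd3e, part of the receptor complex of T cells, had 0 counts in all 4 Normal libraries and 291 in the Isotype libraries. A list of T cell genes, taken up below, summed to 75.5 and 54.9 CPM in Normal replicates 3 and 4. The same list summed to 66.2 and 75 CPM in Normal replicates 1 and 2. In the Vehicle libraries, grouped by their own files, the sums were 320 to 448 CPM. Colon markers were present in both groups, with Cdh17, an intestinal cadherin, between 475 and 638 CPM in Normal and between 527 and 681 in Isotype and Hoxb13, a gene of the hindgut, between 410.4 and 560.4 and between 204 and 342 CPM, and the small intestinal disaccharidase genes Lct and Sis had 1 count each in either group. Levels are given as CPM, the count scaled to a common library total, in replicates 1 to 4 in that order, changes as log2 fold changes of Isotype minus Normal with the standard error, and p-values after adjustment over all 14773 genes tested. A positive change means higher in Isotype. Genomic positions are on mm10.

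In T cell transfer colitis, CD4+ T cells placed in a host without lymphocytes of its own meet antigens of the gut flora, expand in the colon and release cytokines. Interferon-gamma, the leading cytokine of T helper 1 cells, acts through the kinases JAK1 and JAK2 on promoters that hold the gamma-activated site, and through the factor IRF1 on the interferon-stimulated response element. Its targets include GTPases that attack intracellular microbes, the machinery that cuts and presents antigen, and the chemokines that draw in more T cells. Neutrophils and monocytes follow along gradients of CXC and CC chemokines, while the epithelium turns to defence and loses part of its absorptive programme.

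Promoter sequences of interferon-gamma inducible GTPase genes are shown first, with 3 other targets of the pathway, because every member of this list that was tested was higher in Isotype and many of their promoters carry the elements just named. The windows are the 250 bases before the annotated start of each gene in RefSeq (GRCm38.p6), read in the direction of transcription. TTCNNNGAA, the letters of a gamma-activated site, and GAAA followed after any 2 bases by GAAA, the core of a response element, were searched on both strands and are printed in capitals. The 2 patterns can overlap.
Igtp (chr11:58199481-58199555, plus strand): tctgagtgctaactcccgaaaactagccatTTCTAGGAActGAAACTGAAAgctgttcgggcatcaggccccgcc
Irgm2 (chr11:58214872-58214952, plus strand): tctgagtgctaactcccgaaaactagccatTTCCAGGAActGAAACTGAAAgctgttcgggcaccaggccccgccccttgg
Tgtp1 (chr11:48992284-48992364, minus strand): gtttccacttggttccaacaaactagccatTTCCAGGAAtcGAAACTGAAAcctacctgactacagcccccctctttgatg
Tgtp2 (chr11:49064243-49064323, minus strand): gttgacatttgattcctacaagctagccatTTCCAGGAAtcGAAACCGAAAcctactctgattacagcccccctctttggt
Gbp7 (chr3:142530200-142530322, plus strand): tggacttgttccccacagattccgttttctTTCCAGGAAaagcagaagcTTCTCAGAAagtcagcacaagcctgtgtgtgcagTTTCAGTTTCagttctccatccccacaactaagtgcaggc
Gbp3 (chr3:142559969-142560043, plus strand): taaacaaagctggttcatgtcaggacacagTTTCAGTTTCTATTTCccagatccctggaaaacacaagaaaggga
Irf1 (chr11:53769894-53769962, plus strand): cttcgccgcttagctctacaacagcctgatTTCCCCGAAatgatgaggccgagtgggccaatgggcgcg
Psmb8 (chr17:34198068-34198136, plus strand): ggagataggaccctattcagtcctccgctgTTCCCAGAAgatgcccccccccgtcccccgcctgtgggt
Cxcl10 (chr5:92349063-92349132, minus strand): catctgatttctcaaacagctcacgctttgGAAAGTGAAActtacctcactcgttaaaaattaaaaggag
In Igtp, Irgm2, Tgtp1 and Tgtp2 a gamma-activated site pattern stands just upstream of a response element core, and the stretches of these genes resemble each other beyond the patterns, so they are not independent examples. Gbp7 holds 2 gamma-activated site patterns and, farther downstream, a response element core on the other strand, and Gbp3 holds 2 response element cores that overlap. Irf1 and Psmb8 hold the gamma-activated site pattern alone of these 2, and Cxcl10 the response element core alone. All 14 GTPase genes tested were higher in Isotype, where 20.9% of all genes tested were higher, and 9 of them had a window in the RefSeq table. A response element core was found in 9 of these 9 and a gamma-activated site pattern in 6. Of all 27025 genes with a window, 3.46% held the response element core and 8.13% the gamma-activated site pattern. Among 12 MHC class I genes with a window, 2 held the core and 1 the gamma-activated site pattern, and among 5 MHC class II genes 0 and 1 did. Among 7 further interferon-gamma genes with a window, 2 held the core and 2 the gamma-activated site pattern, and among 7 type I interferon genes 2 and 1 did. The kappa B pattern, GGG followed after any 5 bases by CC, was found in 48.7% of all genes with a window and in 2 of the 9 GTPase genes.

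In all, 6085 of 14773 genes tested differed between Isotype and Normal (41.2% called), 3089 of them higher (20.9% of genes tested) and 2996 lower (20.3%). Each count of list members below is to be read beside these shares of all genes. Changes of more than 2-fold were seen for 1368 higher and 1526 lower genes, changes of more than 8-fold for 289 and 122, and changes of more than 32-fold for 134 and 15. Changes of more than 8-fold were thus mostly gains. Of the genes called, 65 had 0 counts in every Normal library and 0 had 0 counts in every Isotype library. The Isotype libraries were deeper, and the fitted size of such changes depends on edgeR's prior count. The split by size was not repeated with libraries thinned to an equal total. CPM of the groups did not overlap for 2832 genes in the higher direction (19.2%) and 2655 in the lower direction (18.0%). Over all genes tested the median log2 fold change was 0.009. With Isotype replicates 1 and 2 alone against all Normal libraries, 4756 genes differed, of which 4395 were among the 6085. With the 2 Normal and 2 Isotype libraries whose group both sources agree on, 1033 genes differed. Grouped by the column names of the series table, under which Normal replicates 3 and 4 count as Vehicle and colitis libraries as Normal, 262 did.

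**Figure D1:**
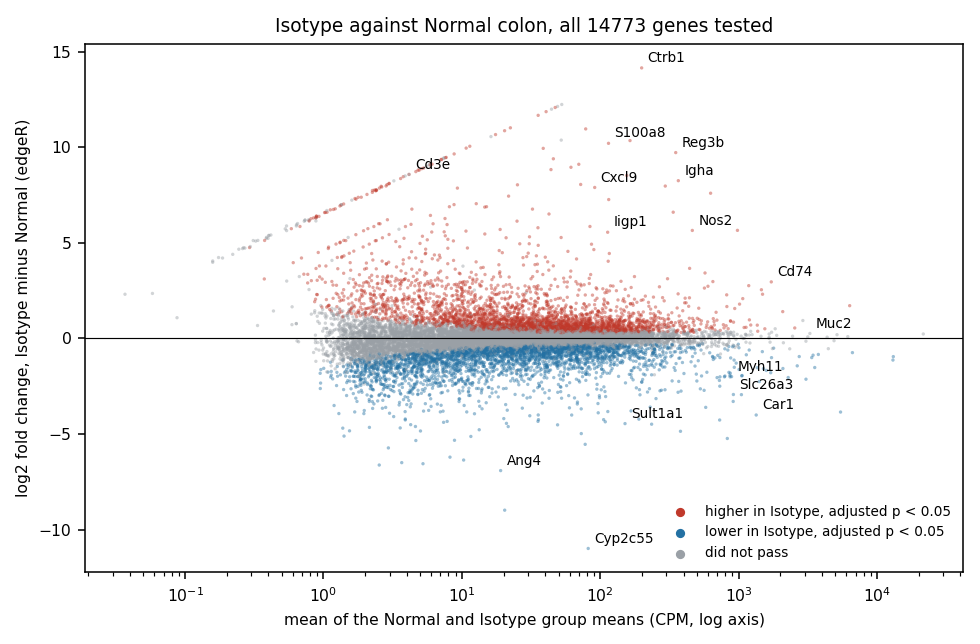
Log2 fold change of Isotype minus Normal (edgeR) against the mean of the group means in CPM on a log axis, 1 point for each of the 14773 genes tested. Red points (3089) were higher and blue points (2996) lower at an adjusted p under 0.05. The straight rows of points at the upper left are genes with 0 or very few counts in Normal, whose fitted fold change depends on edgeR's prior count.

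The 10 highest changes by a fixed rule (mean of at least 5 CPM, no overlap, no predicted gene) were Ctrb1, Try4 and Prss2, which encode digestive enzymes of the pancreas, the immunoglobulin genes Ighv1-9, Igkv19-93, Igkv4-74, Ighg1 and Igkv4-59, and S100a9 and S100a8. The pancreas and immunoglobulin genes differed widely between Isotype libraries and are taken up below. When they were set aside, a choice made after their values were seen, the 10 highest fitted changes were S100a9, S100a8, Reg3b, Ly6d, Cd5, Cxcl5, Cxcl2, Trac, Slfn1 and Mmp7, most of which are genes of neutrophils, T cells, chemokines and the epithelium. Ly6d, a small surface protein gene of the Ly6 family, had 0 counts in Normal and 23.8, 11.7, 19.6 and 15.3 CPM in Isotype, at least 102-fold higher. Slfn1, a Schlafen gene of lymphoid and myeloid cells, had 0 counts in Normal and 17.2, 7.66, 7.98 and 8.10 CPM in Isotype, at least 60.9-fold higher. These lower bounds rest on a floor of 3 counts over the 4 Normal libraries and cover counting error only. The rank of genes with 0 counts in Normal rests on fitted values that depend on edgeR's prior count, and Reg3g and Cxcl9 (log2 fold changes of 8.53 and 7.90), outside these 10, changed by more than the bounds of Ly6d, Cxcl2, Trac and Slfn1. The 10 lowest were Cyp2c55, Slc30a10, Ang4, Pde6a, Smpx, Itih2, Cyp2c69, Odf3b, Cyp2f2 and Inmt. Slc30a10, a manganese exporter gene (chromosome 1, 185454848 to 185468762), stood at 30.5, 40.7, 47.5 and 44.2 CPM in Normal and 0, 0.236, 0 and 0 in Isotype, 722 counts against 2. Its count ratio of Normal over Isotype was 701 with a 95% interval for counting error of 193 to 5800.5 (adjusted p = 0.00199). Itih2, which encodes a heavy chain that stabilises hyaluronan, stood at 18, 17.2, 20.1 and 26.4 CPM in Normal and 0.11, 0.118, 0 and 0.552 in Isotype (log2 fold change -6.36 ± 1.09, adjusted p = 0.000152). The cytochrome P450 genes Cyp2c69 and Cyp2f2 changed by -6.21 ± 1.10 and -5.54 ± 1.23 (adjusted p = 0.000194 and adjusted p = 0.00187). That the lowest Normal library lay above the highest Isotype library in these 10 genes was a condition of the rule that picked them, and not a result.

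**Figure D2:**
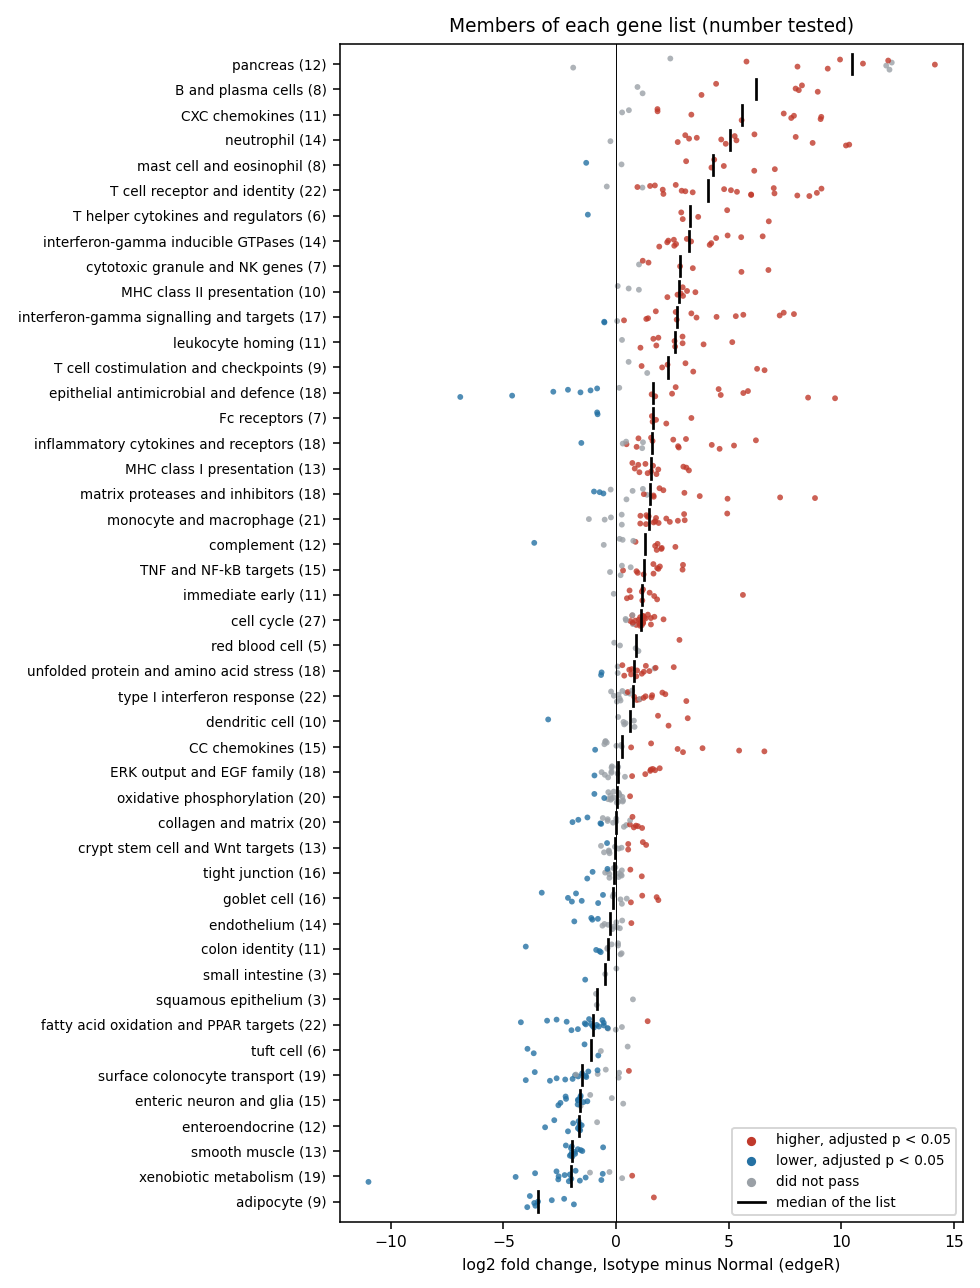
Log2 fold changes of Isotype minus Normal (edgeR) for the tested members of each gene list with 3 or more of them, 1 point per gene, with a black bar at the list's median. Red and blue points passed an adjusted p of 0.05. The lists run from adipocyte genes (median -3.46) at the bottom to pancreas genes at the top, where the high values come mainly from 1 library.

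T cell genes were low or at 0 in Normal and higher in each Isotype library. Summed over the list they stood at 66.2, 75, 75.5 and 54.9 CPM in Normal and 325, 299.8, 288 and 258 CPM in Isotype. Of 22 genes of the T cell receptor and of T cell identity, 20 were higher in Isotype and 0 lower, and 20 were higher with Isotype replicates 1 and 2 alone. The list's median log2 fold change was 4.10, or 3.78 when genes with no Normal count are entered at their lower bound. In bulk tissue, more cells of a type and more RNA per cell cannot be told apart. Cd3e (chromosome 9, 44998740 to 45009627) had 0 counts in Normal and 11.1, 8.73, 5.72 and 7.64 CPM in Isotype, at least 49.9-fold higher (adjusted p = 4.12e-07). Trac, the constant region of the receptor's alpha chain, had 0 counts in Normal and 11.4, 8.37, 13.9 and 8.75 CPM in Isotype, at least 59.9-fold higher (adjusted p = 3.22e-08). The kinase gene Lck, which starts signalling from the receptor, stood at 4.11, 4.37, 2.59 and 3.05 CPM in Normal and 35.3, 27.6, 33.1 and 21.8 in Isotype (log2 fold change 3.08 ± 0.31, adjusted p = 1.18e-07). Cd4 was already detected in Normal, with 5.41, 7.40, 9.23 and 8.72 CPM in Normal and 38, 37.7, 27.4 and 30.01 in Isotype (log2 fold change 2.11 ± 0.31, adjusted p = 1.9e-05). Its groups did not overlap, and CD4 is also carried by mouse dendritic cells. The transferred cells were CD4+, and yet Cd8a had 0 counts in Normal and 1.65, 0.59, 2.78 and 6.17 CPM in Isotype, at least 17.7-fold higher (adjusted p = 0.00127), with the highest value in replicate 4. Bcl11b and Cd27 were the members that did not pass, at -0.41 ± 0.23 and 1.17 ± 0.60 (adjusted p = 0.163 and adjusted p = 0.117).

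Among 9 costimulation and checkpoint genes, 7 were higher (8 of 11 tested with Isotype replicates 1 and 2 alone), and Tnfrsf18 and Cd28 did not pass. Ctla4 and Pdcd1, brakes on activated T cells, had 0 counts in Normal and 2.87, 1.18, 1.73 and 2.49 and 1.87, 2.00, 0.867 and 1.75 CPM in Isotype, at least 12.5-fold and at least 9.95-fold higher. Icos, a costimulator of effector T cells, rose from between 0.336 and 1.09 to between 6.44 and 10.8 CPM without overlap (log2 fold change 3.43 ± 0.45, adjusted p = 4.8e-06). Of 18 T helper genes, 6 had enough counts to be tested, and 5 of these were higher: Ifng, Tbx21, Foxp3, Gata3 and Il12rb2. Another 1 was lower, with overlapping groups. It did not pass without Normal replicate 1, 3 or 4 or without Isotype replicate 1 or 3. With Isotype replicates 1 and 2 alone, 6 of 8 were higher and 0 lower. Ifng itself (chromosome 10, 118441046 to 118445892) had 0 counts in Normal and 3.31, 0.59, 3.99 and 1.84 CPM in Isotype, 78 counts in all and at least 13.4-fold higher (adjusted p = 0.00262). Tbx21, the master regulator of T helper 1 cells, stood at 0.433, 0.336, 0.554 and 0.436 CPM in Normal and 4.74, 2.71, 4.16 and 3.13 in Isotype (log2 fold change 2.96 ± 0.47, adjusted p = 4.58e-05). Foxp3, the regulator of regulatory T cells, had 2 counts in Normal and 2.21, 4.83, 6.07 and 3.59 CPM in Isotype, a count ratio of 34.8 with a 95% interval for counting error of 9.44 to 289.9 (adjusted p = 0.000228). Cytokine genes of other helper types stayed at the edge of detection: Il17a had 29 counts in Isotype and 0 in Normal, Il22 had 10 and 0, Il4 had 1 and 2, and Il10 had 1 and 4. They were too low to be tested. When genes of low counts were kept in the fit, 8 members of the list were called higher and 0 lower.

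Cytotoxic genes were higher as well, 6 of 7 (4 with Isotype replicates 1 and 2 alone), with Klrd1 not passing. Gzmb, a granzyme that triggers death of the target cell, had 1 count in Normal and 5.51, 8.14, 9.89 and 11 CPM in Isotype, a count ratio of 152 with a 95% interval for counting error of 27.1 to 6019 (adjusted p = 3.03e-07). Gzma stood at 0.433, 0, 0 and 0.436 CPM in Normal and 7.50, 14.9, 16 and 9.30 in Isotype (log2 fold change 5.57 ± 0.71, adjusted p = 4.37e-06). Nkg7, a granule membrane protein gene, was close together in the Isotype libraries, with 1.51, 1.68, 1.29 and 1.09 CPM in Normal and 10.1, 9.55, 10.6 and 9.76 in Isotype (log2 fold change 2.85 ± 0.33, adjusted p = 8.5e-07). Genes of leukocyte homing were higher in 10 of 11 cases (10 with Isotype replicates 1 and 2 alone), and the sphingosine receptor gene S1pr1 did not pass. The gut homing integrin pair is formed by Itga4 and Itgb7, whose ligand on gut vessels is Madcam1. Itgb7 stood at 5.41, 4.71, 7.39 and 10.5 CPM in Normal and 50.7, 40.4, 45.3 and 39.5 in Isotype (log2 fold change 2.63 ± 0.26, adjusted p = 9.41e-08). The partner gene Itga4 changed by 1.09 ± 0.20 (adjusted p = 0.000245). Madcam1 rose from between 3.05 and 4.54 to between 10.2 and 16.6 CPM (log2 fold change 1.66 ± 0.27, adjusted p = 4.7e-05), and Icam1, the ligand of the integrin encoded by Itgal, from between 10.8 and 15.8 to between 81.7 and 132 CPM (log2 fold change 2.96 ± 0.31, adjusted p = 3.41e-07). Itgal changed by 3.89 ± 0.39 (adjusted p = 2.73e-07). The groups did not overlap for any of these genes.

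The interferon-gamma inducible GTPases rose without exception. All 14 GTPase genes tested were higher (median log2 fold change 3.24), and 15 of 15 with Isotype replicates 1 and 2 alone. Iigp1, which disrupts vacuoles that hold parasites, stood at 4.54, 9.08, 3.32 and 2.83 CPM in Normal and 187, 171, 298 and 229 in Isotype (log2 fold change 5.56 ± 0.50, adjusted p = 1.18e-07). Igtp (chromosome 11, 58199556 to 58207591) stood at 15.1, 10.8, 9.23 and 5.67 CPM in Normal and 226, 179, 228 and 257 in Isotype (log2 fold change 4.45 ± 0.42, adjusted p = 1.53e-07). Tgtp1, whose promoter is printed above, stood at 0.865, 0, 0.739 and 1.74 CPM in Normal and 79.1, 71, 87.9 and 99.6 in Isotype (log2 fold change 6.51 ± 0.54, adjusted p = 3.49e-08). Its near-identical neighbour Tgtp2 may share its reads, so their separate values are uncertain. Gbp2 was already expressed in Normal, at 55.8, 78, 53.2 and 64.5 CPM, and reached 241, 222, 252 and 236 in Isotype (log2 fold change 1.92 ± 0.21, adjusted p = 5.34e-07). Irgm2, a regulator of these GTPases, changed by 3.15 ± 0.23 (adjusted p = 6.98e-10). For each of these 5 genes every Isotype library lay above every Normal library.

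Of 17 genes of interferon-gamma signalling and its other targets, 14 were higher and 2 lower, or 13 and 0 with Isotype replicates 1 and 2 alone. The lower ones were the receptor chains. Ifngr1 stood at 375, 315, 294 and 344 CPM in Normal and 233, 268, 188 and 241 in Isotype (log2 fold change -0.51 ± 0.13, adjusted p = 0.00379), and Ifngr2 changed by -0.52 ± 0.15 (adjusted p = 0.00713). Of the kinases that the receptor uses, Jak1 did not pass (log2 fold change 0.05 ± 0.11, adjusted p = 0.733) and Jak2 was higher with overlapping groups (log2 fold change 0.36 ± 0.11, adjusted p = 0.0108), though not with Isotype replicates 1 and 2 alone. Irf1 stood at 161, 189, 199.6 and 193 CPM in Normal and 458, 397, 548 and 487 in Isotype (log2 fold change 1.35 ± 0.17, adjusted p = 2.58e-06). The feedback inhibitor gene Socs1 rose from between 0.739 and 2.16 to between 41.7 and 97 CPM (log2 fold change 5.32 ± 0.76, adjusted p = 3.14e-05). Among effectors, Nos2, which makes nitric oxide, stood at 23.8, 18.2, 18.3 and 11.8 CPM in Normal and 965, 665, 1281 and 719 in Isotype (log2 fold change 5.65 ± 0.59, adjusted p = 9.03e-07). Ido1, which breaks down tryptophan, rose from between 0.654 and 2.22 to between 140.3 and 333 CPM (log2 fold change 7.27 ± 1.02, adjusted p = 3.22e-05). Cd274, the ligand of the brake PD-1, rose from between 4.04 and 5.45 to between 24 and 35.5 CPM (log2 fold change 2.65 ± 0.29, adjusted p = 3.66e-07).

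The chemokine genes Cxcl9, Cxcl10 and Cxcl11, whose shared receptor guides T helper 1 cells, were higher. Cxcl9 (chromosome 5, 92321347 to 92328079) stood at 1.73, 0.336, 0.369 and 0.436 CPM in Normal and 202, 182, 171 and 171 in Isotype (log2 fold change 7.90 ± 0.88, adjusted p = 2.69e-06). Cxcl10 stood at 10.4, 8.07, 4.99 and 4.36 CPM in Normal and 93.8, 51.2, 71.6 and 63.3 in Isotype (log2 fold change 3.35 ± 0.53, adjusted p = 8.96e-05). Cxcl11 had 4 counts in Normal and 1468 in Isotype (log2 fold change 7.45 ± 1.02, adjusted p = 2.12e-05). Genes of antigen presentation by MHC class I rose, with 13 of 13 genes higher and a median of 1.57 (13 with Isotype replicates 1 and 2 alone). Tap1, which carries peptides to class I, stood at 37.4, 43.7, 34 and 20.7 CPM in Normal and 319.9, 286, 364 and 308 in Isotype (log2 fold change 3.24 ± 0.25, adjusted p = 3.06e-09). The immunoproteasome genes Psmb8 and Psmb9 changed by 3.13 ± 0.29 and 2.99 ± 0.29 (adjusted p = 5.06e-08 and adjusted p = 1.18e-07). Of the class I chains themselves, H2-K1 changed by 1.80 ± 0.15 and B2m by 1.57 ± 0.16 (adjusted p = 6.33e-09 and adjusted p = 1.8e-07). Nlrc5, the activator of class I genes, stood at 2.60, 2.69, 3.69 and 1.31 CPM in Normal and 55.2, 59.8, 48 and 67.9 in Isotype (log2 fold change 4.47 ± 0.36, adjusted p = 8.38e-09).

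Of 10 MHC class II genes, 7 were higher (7 with Isotype replicates 1 and 2 alone). H2-Ab1, a chain of the class II molecule, was close together in both groups, with 145, 137, 154 and 151 CPM in Normal and 1129, 1159, 1089 and 1248 in Isotype (log2 fold change 2.98 ± 0.15, adjusted p = 2.69e-12). H2-Eb1 and the invariant chain gene Cd74 changed by 2.73 ± 0.15 and 2.96 ± 0.16. Ciita, the master activator of class II, stood at 6.27, 3.03, 10.2 and 5.88 CPM in Normal and 73.8, 73.7, 68.2 and 99 in Isotype (log2 fold change 3.58 ± 0.31, adjusted p = 3.87e-08). The members that did not pass were Ctss, H2-Oa and H2-Ob. Of the type I interferon response, 11 of 22 genes were higher, where 20.9% of all genes tested were. Their median was 0.77 (10 called higher with Isotype replicates 1 and 2 alone). Ifit2 stood out among them, with 4.11, 9.76, 6.09 and 6.54 CPM in Normal and 47.9, 52.5, 80.3 and 45.7 in Isotype (log2 fold change 3.12 ± 0.34, adjusted p = 5.88e-07), and Zbp1, a sensor of nucleic acid that leads to cell death, rose from between 22.9 and 60.9 to between 133 and 206 CPM (log2 fold change 2.06 ± 0.25, adjusted p = 1.94e-06). Ifit1, Ifit3, Irf7, Rsad2 and Oas1a, also members, did not pass. Isg15 passed narrowly (log2 fold change 0.93 ± 0.35, adjusted p = 0.0368), and it did not pass without Normal replicate 2, 3 or 4, without Isotype replicate 1, 2 or 3, or with Isotype replicates 1 and 2 alone.

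**Figure D3:**
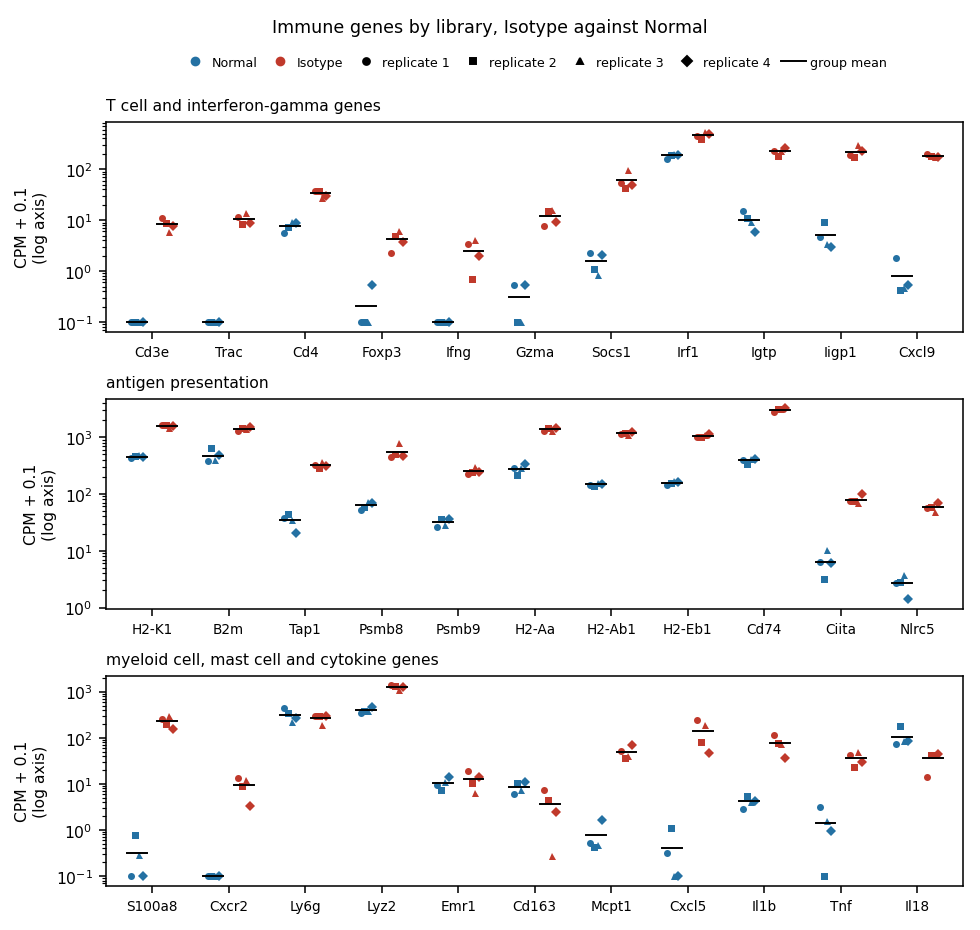
CPM plus 0.1 on a log axis for 33 immune genes, 1 point per library with the replicate as its shape, Normal in blue and Isotype in red, and a bar at each group mean. Cd3e, Trac, Ifng and Cxcr2 sit at 0 in all 4 Normal libraries, while Ly6g, Emr1 and Cd163 overlap between the groups.

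Neutrophil genes showed some of the largest gains. Of 14 tested, 13 were higher (13 with Isotype replicates 1 and 2 alone), with a median of 5.07, or 4.71 when genes with no Normal count are entered at that bound. S100a8 and S100a9 encode the subunits of calprotectin, the metal-binding protein of neutrophil cytosol. S100a9 stood at 0, 0.673, 0.369 and 0 CPM in Normal and 369, 195, 645 and 103 in Isotype (log2 fold change 10.36 ± 1.78, adjusted p = 0.000224). S100a8 had 3 counts in Normal and 259, 202, 301 and 155 CPM in Isotype, a count ratio of 1284 with a 95% interval for counting error of 439 to 6227 (adjusted p = 1.9e-05). Cxcr2, the receptor for neutrophil-attracting chemokines, had 0 counts in Normal and 13.5, 8.73, 11.8 and 3.22 CPM in Isotype, at least 51.3-fold higher (adjusted p = 0.000147). Csf3r, the receptor for the growth factor G-CSF, stood at 3.24, 0, 2.59 and 2.83 CPM in Normal and 86.7, 74, 85.2 and 30.5 in Isotype (log2 fold change 4.87 ± 0.63, adjusted p = 1.16e-05). In Csf3r, Cxcr2, S100a8 and S100a9 replicate 4 was the lowest Isotype library. Ly6g did not move with the list: it stood at 438, 345, 219.7 and 264 CPM in Normal and 289, 299, 190.1 and 290.2 in Isotype, with overlapping groups (log2 fold change -0.25 ± 0.23, adjusted p = 0.409). Mpo, a granule gene of immature neutrophils, had 23 counts in Isotype and 0 in Normal and was too low to be tested.

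Of 21 monocyte and macrophage genes, 16 were higher (median 1.45), as 16 were with Isotype replicates 1 and 2 alone. The lysozyme gene Lyz2 stood at 347, 373, 384 and 468 CPM in Normal and 1361, 1337, 1077 and 1229 in Isotype (log2 fold change 1.67 ± 0.28, adjusted p = 9.46e-05). Ccr2 and Ly6c2, which mark monocytes that arrive from blood, changed by 2.75 ± 0.33 and 3.05 ± 0.38 (adjusted p = 1.78e-06 and adjusted p = 2.74e-06). Cd14, a receptor that helps to sense lipopolysaccharide, rose from between 70.5 and 86.1 to between 228 and 431 CPM (log2 fold change 1.89 ± 0.22, adjusted p = 1.26e-06). Among the other macrophage genes called higher were Csf1r, Aif1 and Fcgr1. With 1 library left out their log2 fold changes were 1.18 to 1.43, 2.23 to 2.54 and 1.86 to 2.46. The members that did not pass included markers of resident macrophages. Cx3cr1 stood at 17.3, 20.2, 15.7 and 16.6 CPM in Normal and 16.9, 13.9, 14.6 and 14.1 in Isotype (log2 fold change -0.22 ± 0.32, adjusted p = 0.599). Emr1, which encodes F4/80, stood at 9.52, 7.40, 10.7 and 13.7 CPM in Normal and 19.3, 10.3, 6.24 and 13.7 in Isotype (log2 fold change 0.26 ± 0.36, adjusted p = 0.585). Cd163, a scavenger receptor gene, stood at 5.84, 10.1, 7.20 and 10.7 CPM in Normal and 7.39, 4.36, 0.173 and 2.30 in Isotype, with the lowest value in replicate 3 (log2 fold change -1.20 ± 0.61, adjusted p = 0.12). Mrc1, the mannose receptor gene, changed by -0.50 ± 0.32 (adjusted p = 0.208).

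Of 10 dendritic cell genes, 3 were higher and 1 lower, where 20.9% and 20.3% of all genes tested were. Isotype replicates 1 and 2 alone gave the same counts for this list. Ccr7, which guides mature dendritic cells to lymph nodes, stood at 1.73, 2.69, 1.11 and 0.872 CPM in Normal and 15, 12, 18.4 and 10.6 in Isotype (log2 fold change 3.19 ± 0.48, adjusted p = 2.46e-05). Itgax and Fscn1 changed by 2.33 ± 0.34 and 1.87 ± 0.25 (adjusted p = 2.08e-05 and adjusted p = 7.4e-06). Cd209a was lower, at 4.11, 4.71, 2.40 and 4.58 CPM in Normal and 0.662, 0.118, 0.52 and 0.552 in Isotype (log2 fold change -3.01 ± 0.79, adjusted p = 0.00446). The markers of type 1 dendritic cells Xcr1, Clec9a and Batf3 did not pass, and neither did Flt3 (log2 fold change 0.82 ± 0.34, adjusted p = 0.0541). Among 8 genes of mast cells and eosinophils, 6 were higher and 1 lower (5 and 1 of 9 with Isotype replicates 1 and 2 alone). Mcpt1 and Mcpt2 encode proteases of mucosal mast cells. Mcpt1 stood at 0.433, 0.336, 0.369 and 1.53 CPM in Normal and 52, 36.4, 39.4 and 69.8 in Isotype (log2 fold change 6.14 ± 1.08, adjusted p = 0.00027). Mcpt2 had 3 counts in Normal and 944 in Isotype, a count ratio of 162 with a 95% interval for counting error of 55.3 to 787 (adjusted p = 0.000251). Kit, the stem cell factor receptor of mast cells and of interstitial cells of Cajal, was lower, at 58.4, 53.5, 57.6 and 54.1 CPM in Normal and 18.4, 24.1, 16.8 and 29.7 in Isotype (log2 fold change -1.32 ± 0.30, adjusted p = 0.00158). Siglecf, an eosinophil marker, had 41 counts in Isotype and 12 in Normal and was not tested.

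Of 7 receptors for the constant part of antibodies, 5 were higher and 2 lower (5 and 1 with Isotype replicates 1 and 2 alone). Fcgr4, an activating receptor of myeloid cells, stood at 2.60, 4.04, 2.22 and 1.96 CPM in Normal and 53.9, 14.6, 23.6 and 14.6 in Isotype (log2 fold change 3.35 ± 0.49, adjusted p = 2.89e-05). Fcer1g, the signalling chain shared by these receptors, rose from between 16.4 and 24.9 to between 42.9 and 82.1 CPM (log2 fold change 1.59 ± 0.29, adjusted p = 0.000188). Fcgrt, which protects antibody from breakdown, fell from between 77.7 and 105 to between 41.3 and 64.5 CPM (log2 fold change -0.82 ± 0.23, adjusted p = 0.00711). It did not pass with Isotype replicates 1 and 2 alone. Pigr, which carries IgA across the epithelium, stood at 3807, 5204, 4952 and 5353 CPM in Normal and 992, 3006, 3211 and 3609 in Isotype. It passed (log2 fold change -0.84 ± 0.33, adjusted p = 0.0488), but not without Normal replicate 2, 3 or 4 or Isotype replicate 1, 2 or 3.

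Antibody genes were detected in Isotype libraries although SCID mice lack mature B cells, and their level differed from library to library. Of 8 B and plasma cell genes, 6 were higher (6 with Isotype replicates 1 and 2 alone), with a median of 6.21, or 4.83 when genes with no Normal count are entered at their bound. Igha, the constant region of IgA, stood at 0.649, 0, 6.83 and 0.872 CPM in Normal and 401, 1353, 54.6 and 1116 in Isotype (log2 fold change 8.26 ± 1.83, adjusted p = 0.00178). Igkc, the kappa light chain, stood at 0, 0.336, 7.20 and 0.654 CPM in Normal and 279.6, 996, 43.7 and 1032 in Isotype (log2 fold change 7.98 ± 1.82, adjusted p = 0.0022). Replicates 2 and 4 were high, replicate 1 lower and replicate 3 lowest, and yet the groups did not overlap. Igj, the joining chain of IgA in the gut lumen, followed the same order with 57.2, 226, 11.4 and 196 CPM (log2 fold change 8.96 ± 2.19, adjusted p = 0.00361). Single variable segments were high in 1 or 2 libraries: Igkv19-93 stood at 0.221, 277, 5.38 and 2.12 CPM and Ighv1-9 at 2.32, 186, 1.73 and 135, both with 0 counts in Normal. Ighg1, the constant region of IgG1, stood at 7.72, 28.4, 0.867 and 54.3 CPM with 0 counts in Normal (adjusted p = 0.0331). It did not pass without any of the 4 Normal libraries in turn or without Isotype replicate 4, and Igkv4-74 not without any of the Normal libraries or Isotype replicate 2. Of markers of B cells as such, Ighm and Cd79b did not pass. The Vehicle libraries held Igha at 1087 ± 1085 CPM (SD, n = 4), and the difference of Isotype from Vehicle did not pass (log2 fold change -0.57 ± 1.24, adjusted p = 0.863). Immunoglobulin segments resemble each other, so reads may be split between them. What the differences between libraries come from was not tested.

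Transcripts of pancreatic enzymes were high in Isotype replicate 1. The pancreas list summed to 5632, 182, 71.6 and 65 CPM in the Isotype libraries and to 420.1, 343, 358 and 478 CPM in Normal. The Normal sums are almost wholly Cela1, an elastase gene that did not pass with all libraries and was lower without Isotype replicate 1 (log2 fold change -3.19 ± 1.10, adjusted p = 0.0336), while defining acinar genes such as Ctrb1, Try4, Cpa1 and Cela3b had 0 counts in Normal. Ctrb1, which encodes a chymotrypsinogen, stood at 1545, 38.2, 6.07 and 3.77 CPM in Isotype (adjusted p = 0.0419). In all, 7 of 12 pancreas genes were called higher, 2 without Normal replicate 1, 3 without Normal replicate 2, 2 without Normal replicate 3, and 0 without Normal replicate 4 or without Isotype replicate 1. DESeq2 called 0 of them, and 8 of 13 tested were called with Isotype replicates 1 and 2 alone. Ctrb1 and Try4 did not pass without any of the 4 Normal libraries in turn or without Isotype replicate 1, and Prss2 not without Normal replicate 4 or Isotype replicate 1. The same library held the highest level of Col1a1 and the lowest of Muc2, Zg16 and Pigr among the Isotype libraries, as given below, and the part of these transcripts in other results was not tested.

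**Figure D4:**
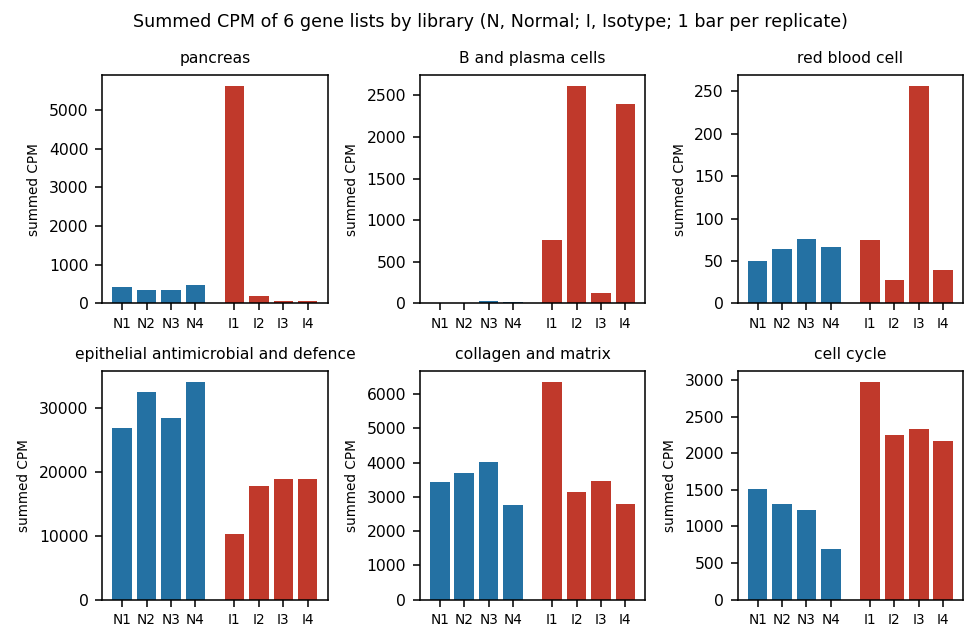
Summed CPM of 6 gene lists in the 4 Normal (blue) and 4 Isotype (red) libraries, 1 bar per replicate, each axis from 0. Pancreas transcripts are concentrated in Isotype replicate 1, plasma cell transcripts in replicates 2 and 4 and red blood cell transcripts in replicate 3, whereas cell cycle genes are higher in each Isotype library than in each Normal library.

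Chemokine genes for neutrophils went from near 0 to clearly detected. Of 11 CXC chemokine genes, 9 were higher (10 with Isotype replicates 1 and 2 alone), and the homeostatic Cxcl12 and Cxcl14 did not pass. Cxcl5 (chromosome 5, 90759360 to 90761624) stood at 0.216, 1.01, 0 and 0 CPM in Normal and 241, 82.1, 188 and 47.7 in Isotype (log2 fold change 9.11 ± 1.86, adjusted p = 0.000957). Cxcl2 had 0 counts in Normal and 16, 8.96, 16 and 6.63 CPM in Isotype, at least 66.1-fold higher (adjusted p = 0.000937). Cxcl1 stood at 0.216, 0, 0.185 and 0.654 CPM in Normal and 22.7, 9.79, 19.4 and 6.63 in Isotype (log2 fold change 5.58 ± 0.89, adjusted p = 7.55e-05). In these ligands of CXCR2, replicates 1 and 3 were high and replicates 2 and 4 low. Cxcl13, which attracts B cells, rose from between 6.83 and 13.5 to between 21.8 and 44.8 CPM (log2 fold change 1.85 ± 0.34, adjusted p = 0.000274). Of 15 CC chemokine genes, 7 were higher and 1 lower, where 20.9% and 20.3% of all genes tested were. Their median was 0.26 (6 and 1 of 16 called with Isotype replicates 1 and 2 alone). Ccl2, the ligand of CCR2, stood at 2.38, 3.03, 2.95 and 1.09 CPM in Normal and 28.2, 17.2, 15.6 and 13 in Isotype (log2 fold change 2.98 ± 0.50, adjusted p = 9.84e-05). Ccl5, a chemokine of activated T cells, stood at 0.649, 0.673, 0.369 and 0.872 CPM in Normal and 55, 12.9, 25.3 and 21.4 in Isotype (log2 fold change 5.47 ± 0.74, adjusted p = 1.6e-05). Epithelial Ccl28, Ccl25 and Ccl20 did not pass, and Ccl6 was lower (log2 fold change -0.93 ± 0.28, adjusted p = 0.011).

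Of 18 inflammatory cytokine and receptor genes, 13 were higher and 1 lower (15 and 1 of 19 with Isotype replicates 1 and 2 alone). Tnf, the target of the therapeutic antibodies used in this disease, stood at 3.03, 0, 1.48 and 0.872 CPM in Normal and 42.9, 23.3, 48.2 and 29.1 in Isotype (log2 fold change 4.6 ± 0.67, adjusted p = 3.8e-05). Its receptor gene Tnfrsf1b, found mainly on immune cells, rose from between 29.6 and 32.9 to between 142 and 293 CPM (log2 fold change 2.76 ± 0.37, adjusted p = 1.19e-05). Il1b stood at 2.81, 5.38, 3.88 and 4.14 CPM in Normal and 117, 76.9, 74.4 and 36.1 in Isotype, highest in replicate 1 and lowest in replicate 4 (log2 fold change 4.25 ± 0.65, adjusted p = 6.88e-05). Il11, a stromal cytokine of the IL-6 family, had 1 count in Normal and 14.4, 3.77, 3.12 and 1.66 CPM in Isotype, a count ratio of 102 with a 95% interval for counting error of 18.2 to 4067 (adjusted p = 9.05e-05). Il18, which the resting epithelium makes, was the member that fell, with 73.6, 175, 83.1 and 86.3 CPM in Normal and 13.8, 41.6, 43 and 45 in Isotype (log2 fold change -1.54 ± 0.40, adjusted p = 0.00498). Il6 had 15 counts in Isotype and 0 in Normal, Il23a had 5 and 4, and neither was tested. Il33 did not pass (log2 fold change 1.20 ± 0.62, adjusted p = 0.124), with 44.5, 6.6, 10.1 and 4.14 CPM in Isotype, where replicate 1 stood apart. It passed with Isotype replicates 1 and 2 alone.

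Targets of TNF and of the transcription factor NF-kB were higher in 11 of 15 cases (10 with Isotype replicates 1 and 2 alone). Tnfaip2 rose from between 10.7 and 18.2 to between 83.4 and 169.7 CPM (log2 fold change 2.98 ± 0.41, adjusted p = 1.9e-05), and Nfkbia, the inhibitor that NF-kB induces, from between 73.3 and 96.1 to between 167 and 299.9 CPM (log2 fold change 1.23 ± 0.20, adjusted p = 4.38e-05). Tnfaip3, another feedback inhibitor, did not pass (log2 fold change 0.21 ± 0.20, adjusted p = 0.413). Of 12 complement genes, 7 were higher and 1 lower (7 and 0 with Isotype replicates 1 and 2 alone), where 20.9% and 20.3% of all genes tested were. C3, the central component, stood at 149.7, 168, 164 and 146 CPM in Normal and 1120.1, 959, 1006 and 816 in Isotype (log2 fold change 2.64 ± 0.27, adjusted p = 2.05e-07). C1s1 and C1ra, proteases of the classical pathway, changed by 2.02 ± 0.23 and 1.81 ± 0.21 (adjusted p = 7.33e-07 and adjusted p = 8.68e-07). The gene that fell was Cfd, which is made by fat cells (log2 fold change -3.63 ± 1.02, adjusted p = 0.00889). It did not pass with Isotype replicates 1 and 2 alone.

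Epithelial defence genes split in opposite directions, 10 of 18 higher and 7 lower (9 and 7 with Isotype replicates 1 and 2 alone). Reg3b and Reg3g, lectins that kill or hold off bacteria at the mucosa, were among the largest gains. Reg3b (chromosome 6, 78370657 to 78373466) stood at 1.73, 1.35, 0.185 and 0.218 CPM in Normal and 273, 322, 1940.4 and 269 in Isotype (log2 fold change 9.73 ± 1.98, adjusted p = 0.000938). Reg3g stood at 1.30, 2.35, 0 and 0.218 CPM in Normal and 57.3, 193, 828 and 160.0 in Isotype (log2 fold change 8.53 ± 1.96, adjusted p = 0.00238). Replicate 3 was the highest Isotype library for both. Duox2 and its partner Duoxa2, which make hydrogen peroxide, were even across the group: Duox2 stood at 263, 238, 297 and 232 CPM in Normal and 657, 792, 881 and 759.8 in Isotype (log2 fold change 1.58 ± 0.16, adjusted p = 1.71e-07), and Duoxa2 changed by 2.49 ± 0.28 (adjusted p = 9.03e-07). Lcn2, which sequesters bacterial siderophores, stood at 7.14, 9.42, 5.54 and 5.88 CPM in Normal and 193, 151, 267 and 80.3 in Isotype (log2 fold change 4.65 ± 0.79, adjusted p = 0.000205). Slpi, an inhibitor of neutrophil elastase, rose from between 1.53 and 10.8 to between 74 and 160.1 CPM (log2 fold change 4.56 ± 0.67, adjusted p = 4.65e-05). Retnlb, a goblet cell protein gene, passed with overlapping groups (log2 fold change 1.74 ± 0.60, adjusted p = 0.0265), but not without Normal replicate 1 or 3, without Isotype replicate 2, 3 or 4, or with Isotype replicates 1 and 2 alone.

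Most defence genes that fell are products of the resting goblet cell and colonocyte. Lypd8, which keeps flagellated bacteria off the epithelium, is among the most abundant transcripts of the colon, with 16803, 17332, 16739 and 20691 CPM in Normal and 5704, 9467, 7879 and 9659 in Isotype (log2 fold change -1.13 ± 0.23, adjusted p = 0.000479). Zg16, a goblet cell lectin that binds Gram-positive bacteria, stood at 3909, 6036, 4572 and 5457 CPM in Normal and 409, 1401, 1055 and 1692 in Isotype (log2 fold change -2.13 ± 0.54, adjusted p = 0.0041). Itln1, a lectin for microbial sugars, stood at 12.5, 72, 48.2 and 34 CPM in Normal and 0.992, 1.41, 0.52 and 3.31 in Isotype (log2 fold change -4.61 ± 0.85, adjusted p = 0.000388). The acute phase genes of the Saa family parted: Saa3 rose from between 1.53 and 4.71 to between 57 and 273 CPM (log2 fold change 5.86 ± 1.08, adjusted p = 0.000395), while Saa1 fell from between 1655 and 3381 to between 329.9 and 1179 CPM (log2 fold change -1.58 ± 0.44, adjusted p = 0.0077). These neighbours are similar in sequence, so shared reads are possible. Summed over the list, defence genes stood at 26891, 32644, 28526 and 34209.8 CPM in Normal and 10285, 17808, 18924 and 18893 CPM in Isotype, with Lypd8 the largest share. The Paneth cell lysozyme gene Lyz1 did not pass.

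Surface colonocyte genes were lower in 13 of 19 cases (20.3% of genes tested were lower), with a median of -1.50, and 1 was higher. With Isotype replicates 1 and 2 alone 12 were lower and 0 higher. Car1, a carbonic anhydrase of the colon surface (chromosome 3, 14766216 to 14808368), stood at 2059.7, 2828, 2812 and 2388 CPM in Normal and 276, 116, 150.0 and 86.3 in Isotype (log2 fold change -4.01 ± 0.67, adjusted p = 0.000153). Slc26a3, the chloride and bicarbonate exchanger, stood at 1235, 1596, 1453 and 2198 CPM in Normal and 83, 289, 198 and 279 in Isotype (log2 fold change -2.93 ± 0.60, adjusted p = 0.000881). Guca2a, the hormone guanylin of the surface epithelium, fell from between 818 and 1212 to between 45.1 and 114 CPM (log2 fold change -3.61 ± 0.64, adjusted p = 0.00028). Cftr, the chloride channel of the crypt, stood at 83.7, 133, 97.3 and 90.7 CPM in Normal and 18.2, 41.3, 38 and 45.1 in Isotype (log2 fold change -1.50 ± 0.26, adjusted p = 0.000118). The water channel gene Aqp8 varied within Isotype, at 26.6, 251, 29 and 279 CPM against 1244, 679, 723 and 999 in Normal (log2 fold change -2.64 ± 0.90, adjusted p = 0.026). It did not pass without Normal replicate 1, without Isotype replicate 1 or 3, or with Isotype replicates 1 and 2 alone. The member that was higher, the keratin gene Krt20, overlapped between groups (log2 fold change 0.57 ± 0.20, adjusted p = 0.0237) and did not pass without Normal replicate 2 or 3 or Isotype replicate 2 or 4. Aqp4, Slc12a2, Slc5a8, Atp12a and Scnn1g did not pass.

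Goblet cell genes did not move together: 4 of 16 were higher and 7 lower, where 20.9% and 20.3% of all genes tested were. Their median was -0.12 (3 higher and 7 lower with Isotype replicates 1 and 2 alone). Muc2, the gel-forming mucin of the colon, stood at 2531, 3199, 3531 and 2641 CPM in Normal and 1426, 4159.6, 3814 and 4875 in Isotype and did not pass (log2 fold change 0.26 ± 0.24, adjusted p = 0.391). Replicate 1 was below every Normal library and replicates 2 to 4 above. Tff3, a peptide secreted with mucin, stood at 1439.7, 1994, 1487 and 1777 CPM in Normal and 270.3, 506, 333 and 615 in Isotype (log2 fold change -1.96 ± 0.34, adjusted p = 0.000148), and Klk1, a kallikrein, fell from between 1556 and 1757 to between 99.9 and 278 CPM (log2 fold change -3.30 ± 0.60, adjusted p = 0.000359). The symbol Clca1 stood at 5.41, 5.38, 4.62 and 5.01 CPM in Normal and 21.7, 17.5, 20.3 and 15.8 in Isotype (log2 fold change 1.88 ± 0.25, adjusted p = 4.25e-06). Some symbols of the count data are older names, and which gene of its family this symbol stands for was not checked. Its place among the higher goblet cell genes is therefore uncertain. Muc4, a mucin of the cell surface, changed by 1.81 ± 0.36 (adjusted p = 0.00054). Of the regulators of secretory cells, Atoh1 was lower (log2 fold change -0.79 ± 0.21, adjusted p = 0.00507) and Spdef higher (log2 fold change 0.66 ± 0.20, adjusted p = 0.0111). Spdef did not pass with Isotype replicates 1 and 2 alone. Enteroendocrine genes were lower in 11 of 12 cases (median -1.65), with Insm1 not passing, and in 9 with Isotype replicates 1 and 2 alone. Chga, a granule protein of these cells, stood at 95.8, 133, 108 and 102 CPM in Normal and 23.5, 28.8, 14.9 and 32.1 in Isotype (log2 fold change -2.13 ± 0.47, adjusted p = 0.00139).

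Insl5, a hormone of distal colon L cells, stood at 413, 469, 470.0 and 466 CPM in Normal and 54.1, 107, 35.6 and 8.47 in Isotype, with replicate 4 lowest (log2 fold change -3.15 ± 0.68, adjusted p = 0.00149). The L cell hormone genes Gcg and Pyy also had their lowest value in replicate 4, with 34.5, 38.2, 40.6 and 3.41 and 73.1, 83.7, 60.01 and 9.57 CPM in Isotype (-1.62 ± 0.51 and -1.69 ± 0.52, adjusted p = 0.0162 and adjusted p = 0.0145). Pyy did not pass with Isotype replicates 1 and 2 alone. Tph1, the enzyme for serotonin of enterochromaffin cells, stood at 11, 10.8, 17.5 and 15 CPM in Normal and 4.74, 5.31, 3.64 and 5.15 in Isotype (log2 fold change -1.52 ± 0.35, adjusted p = 0.00152). Tuft cell genes were lower in 4 of 6 cases, where 20.3% of all genes tested were. Only 2 were lower without Normal replicate 3, without Isotype replicate 4 or with Isotype replicates 1 and 2 alone. Trpm5, the cation channel of tuft cell sensing, stood at 5.41, 3.70, 5.91 and 4.80 CPM in Normal and 0.11, 0.236, 0.52 and 0.644 in Isotype (log2 fold change -3.65 ± 0.60, adjusted p = 6.57e-05). Sh2d6 changed by -3.93 ± 0.87 (adjusted p = 0.00114). Dclk1 was lower with overlapping groups (log2 fold change -0.78 ± 0.28, adjusted p = 0.0292), but not without Normal replicate 2 or 3, without Isotype replicate 3 or 4, or with Isotype replicates 1 and 2 alone, and the fourth member called, Ltc4s, not without Normal replicate 1 or 3, without Isotype replicate 2 or 4, or with Isotype replicates 1 and 2 alone.

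Of 13 stem cell and Wnt target genes, 4 were higher and 1 lower, where 20.9% and 20.3% of all genes tested were. Their median was -0.05 (4 and 0 called with Isotype replicates 1 and 2 alone). Lgr5, the marker of cycling crypt base cells, stood at 3.46, 4.71, 4.25 and 7.63 CPM in Normal and 2.21, 5.54, 5.55 and 3.31 in Isotype (log2 fold change -0.29 ± 0.41, adjusted p = 0.6). Axin2, a Wnt target, did not pass either (log2 fold change -0.31 ± 0.30, adjusted p = 0.415). Cd44 rose from between 23.1 and 40.03 to between 52.3 and 95.9 CPM (log2 fold change 1.34 ± 0.22, adjusted p = 6.4e-05), and Sox4, Ephb2 and Myc were the others called higher. Which cells of the bulk tissue hold the Cd44 transcripts was not tested. Myc did not pass without Normal replicate 4 or Isotype replicate 1. The gene called lower was Lrig1 (log2 fold change -0.40 ± 0.15, adjusted p = 0.0354), which did not pass without Normal replicate 1, 2 or 3 or Isotype replicate 1, 2 or 3, or with Isotype replicates 1 and 2 alone. All 27 cell cycle genes had positive changes and 23 were called higher (median 1.10), 18 with Isotype replicates 1 and 2 alone. Without Normal replicate 4, 13 were called, and that library held the lowest Normal level of most of them. Mcm5, part of the helicase of DNA replication, stood at 99.1, 48.8, 64.8 and 49.5 CPM in Normal and 180.5, 135, 135 and 115 in Isotype (log2 fold change 1.10 ± 0.25, adjusted p = 0.00164). Plk1, a kinase of mitosis, stood at 30.9, 26.9, 25.3 and 10.5 CPM in Normal and 96.6, 65.3, 72 and 70.6 in Isotype (log2 fold change 1.71 ± 0.35, adjusted p = 0.000797). Mki67 overlapped between groups (log2 fold change 1.07 ± 0.35, adjusted p = 0.0196) and did not pass without Normal replicate 1 or 4, without Isotype replicate 3, or with Isotype replicates 1 and 2 alone.

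Of 16 tight junction genes, 2 were higher and 3 lower, where 20.9% and 20.3% of all genes tested were. Their median was -0.07 (2 and 1 called with Isotype replicates 1 and 2 alone). Without Normal replicate 1, 4 were higher. Ocln stood at 88.9, 141, 102 and 115 CPM in Normal and 49.2, 59.7, 46.3 and 61.5 in Isotype (log2 fold change -1.04 ± 0.20, adjusted p = 0.000253). The pore-forming claudin gene Cldn2 did not pass (log2 fold change -0.29 ± 0.19, adjusted p = 0.217), whereas Cldn4 was higher with overlapping groups (log2 fold change 1.15 ± 0.27, adjusted p = 0.00178) and Tjp3 without overlap (log2 fold change 0.64 ± 0.14, adjusted p = 0.00135). Cldn1 and Marveld2 were the other members called lower. Cldn1 did not pass without Normal replicate 1 or 2 or Isotype replicate 4, Marveld2 not without Normal replicate 2, 3 or 4 or Isotype replicate 1, 2 or 3, and neither with Isotype replicates 1 and 2 alone.

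Genes that detoxify foreign compounds were lower in 15 of 19 cases (median -1.98), and in 14 of 21 with Isotype replicates 1 and 2 alone. Cyp2c55, a colonic cytochrome P450 (chromosome 19, 39007019 to 39042693), went from abundant to nearly absent, with 98.9, 213, 168 and 174 CPM in Normal and 0, 0, 0.173 and 0.0921 in Isotype. Its 2801 counts in Normal against 2 in Isotype give a ratio of 2720.0 with a 95% interval for counting error of 752 to 22471 (adjusted p = 0.000925). Sult1a1, a sulfotransferase, stood at 218, 314, 302 and 322 CPM in Normal and 2.87, 13.9, 5.90 and 28.8 in Isotype (log2 fold change -4.46 ± 1.05, adjusted p = 0.00271). Abcb1a, the drug efflux pump, stood at 439, 334, 403 and 521 CPM in Normal and 19.96, 52, 19.8 and 48.2 in Isotype (log2 fold change -3.59 ± 0.73, adjusted p = 0.000938). The receptor PXR, encoded by Nr1i2, which induces many such genes, was lower (log2 fold change -0.65 ± 0.21, adjusted p = 0.0165), and not without Normal replicate 1 or Isotype replicate 1. The exception in direction was Gsta4 (log2 fold change 0.72 ± 0.25, adjusted p = 0.0241), which overlapped between groups and did not pass without Normal replicate 2, 3 or 4 or Isotype replicate 1.

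Fatty acid oxidation genes and PPAR targets were lower in 18 of 22 cases (median -1.01), and in 14 with Isotype replicates 1 and 2 alone. Ppargc1a, a coactivator of mitochondrial genes, stood at 41.8, 38.7, 40.8 and 55.4 CPM in Normal and 7.39, 17.9, 10.1 and 19 in Isotype (log2 fold change -1.69 ± 0.44, adjusted p = 0.00467). Hadhb, an enzyme of the beta-oxidation cycle, changed by -0.86 ± 0.13 and Plin2, a lipid droplet coat gene, by -1.20 ± 0.15 (adjusted p = 2.27e-05 and adjusted p = 3.85e-06). Pparg itself did not pass, with 63, 42.7, 45.8 and 49 CPM in Normal and 52.4, 46, 50.8 and 50.4 in Isotype (log2 fold change -0.01 ± 0.13, adjusted p = 0.965). Angptl4 was the member called higher (log2 fold change 1.41 ± 0.52, adjusted p = 0.0352), and not without Normal replicate 2 or 4 or Isotype replicate 1 or 3. Of 20 nuclear genes of the respiratory chain, 1 was higher and 2 were lower, where 20.9% and 20.3% of all genes tested were. Their median was 0.05. In the fit with Isotype replicates 1 and 2 alone, 0 were higher and 4 lower. Atp5b, a subunit of ATP synthase, stood at 2357, 2139.7, 2387 and 2526 CPM in Normal and 2317, 2588, 2683 and 2623 in Isotype (log2 fold change 0.12 ± 0.13, adjusted p = 0.477). The genes called were Cycs, Uqcrc2 and Cox6c. Cycs and Cox6c did not pass without Normal replicate 2, and Cycs not with Isotype replicates 1 and 2 alone. Without Isotype replicate 3, 4 genes were called lower, and without Isotype replicate 1, 2 were called higher.

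Stress and early response genes were mostly higher. Of 18 genes of the unfolded protein response and of amino acid stress, 13 were higher and 2, Ddit3 and Dnajb9, lower. Of all genes tested, 20.9% and 20.3% were. With Isotype replicates 1 and 2 alone the list gave 10 and 1. Without Normal replicate 4, 8 were higher. Ddit3 did not pass without Isotype replicate 3 or with Isotype replicates 1 and 2 alone, and Dnajb9 not without Normal replicate 2 or 4 or Isotype replicate 1 or 3. Asns, which makes asparagine, stood at 51.1, 33, 34 and 33.3 CPM in Normal and 177, 102, 162 and 73.6 in Isotype (log2 fold change 1.76 ± 0.41, adjusted p = 0.00206). Manf, a chaperone-like protein of the endoplasmic reticulum, stood at 108, 123, 85.5 and 76.5 CPM in Normal and 215, 233, 322 and 215 in Isotype (log2 fold change 1.33 ± 0.33, adjusted p = 0.00332). Of 11 immediate early genes, 10 were higher (11 of 12 tested with Isotype replicates 1 and 2 alone), with Ier2 not passing. Egr1 stood at 7.14, 15.8, 14.4 and 10.2 CPM in Normal and 61.2, 44.3, 22.9 and 24.4 in Isotype (log2 fold change 1.70 ± 0.36, adjusted p = 0.000828), and Fos at 68.4, 73, 92.1 and 93.3 and 169.7, 212, 131 and 223 (log2 fold change 1.17 ± 0.20, adjusted p = 8.59e-05). Genes fed by the kinase ERK and the EGF family were mixed: of 18, 7 were higher, 1 was lower and 10 did not pass. Of all genes tested, 20.9% were higher and 20.3% lower. The median of this list was 0.08 (7 and 0 called with Isotype replicates 1 and 2 alone). Hbegf, an EGF receptor ligand, stood at 5.84, 10.8, 5.36 and 6.76 CPM in Normal and 27.8, 30.9, 20.6 and 28.2 in Isotype (log2 fold change 1.94 ± 0.32, adjusted p = 7.7e-05), and Spry4, a feedback inhibitor, at 8.22, 11.1, 10.2 and 4.36 and 20.4, 24.6, 13.9 and 23.5 (log2 fold change 1.30 ± 0.28, adjusted p = 0.000836). Etv4, Etv5, Spry2, Dusp4 and Egfr did not pass. The lower member was Spry1 (log2 fold change -0.96 ± 0.33, adjusted p = 0.0229), which did not pass without Normal replicate 4, without Isotype replicate 2 or 3, or with Isotype replicates 1 and 2 alone.

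Muscle and nerve genes were lower. All 13 smooth muscle genes fell, with a median of -1.94 (12 with Isotype replicates 1 and 2 alone). Myh11, the smooth muscle myosin, was tight in Normal at 1448, 1426, 1435 and 1379 CPM and stood at 226, 393, 357 and 448 in Isotype (log2 fold change -2.0 ± 0.35, adjusted p = 0.000153). Acta2 stood at 1605, 1954, 1726 and 1439.8 CPM in Normal and 340.0, 436, 444 and 535 in Isotype (log2 fold change -1.94 ± 0.25, adjusted p = 4.87e-06). Replicate 1 was the lowest Isotype library for both. Of 15 genes of enteric neurons and glia, 11 were lower (median -1.58) and 8 of 16 with Isotype replicates 1 and 2 alone. Uchl1, an abundant protein of neurons, stood at 25.5, 30.6, 26.8 and 24.8 CPM in Normal and 4.96, 3.89, 2.43 and 6.54 in Isotype (log2 fold change -2.56 ± 0.44, adjusted p = 0.000114). Stmn2, a growth cone gene, changed by -2.22 ± 0.41 and Nos1, which marks inhibitory motor neurons, by -1.45 ± 0.39 (adjusted p = 0.000209 and adjusted p = 0.00526). Vip passed (log2 fold change -1.27 ± 0.44, adjusted p = 0.0271) but not without Normal replicate 4, without Isotype replicate 2 or 3, or with Isotype replicates 1 and 2 alone. Ret, the receptor of enteric neuron growth, did not pass (log2 fold change 0.32 ± 0.35, adjusted p = 0.479), and neither did Gal, Gfap and Elavl4. CPM is a share of all RNA, so a fall in a tissue layer cannot be told apart from a gain of other cells in the sample.

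Of 20 matrix genes, 6 were higher and 5 lower, where 20.9% and 20.3% of all genes tested were. Without Isotype replicate 1, 3 were higher. Col1a1, the main fibrillar collagen, stood at 141, 177, 188 and 105 CPM in Normal and 594, 222, 354 and 195 in Isotype, with replicate 1 highest (log2 fold change 1.16 ± 0.30, adjusted p = 0.00439). Col4a1, a chain of basement membranes, stood at 209, 208, 213 and 161 CPM in Normal and 657, 285, 376 and 236 in Isotype (log2 fold change 0.97 ± 0.24, adjusted p = 0.00298). Without Isotype replicate 1 the log2 fold changes of Col1a1 and Col4a1 were 0.75 and 0.60. Col14a1, a collagen of smooth muscle borders and fibril surfaces, fell from between 46.4 and 57.5 to between 8.50 and 20.1 CPM (log2 fold change -1.93 ± 0.33, adjusted p = 0.00013), and Lum and Postn changed by -1.67 ± 0.38 and -1.27 ± 0.29 (adjusted p = 0.00165 and adjusted p = 0.0019). The other members called lower were Col6a1 and Col6a2, which did not pass with Isotype replicates 1 and 2 alone. With Isotype replicates 1 and 2 alone 8 were higher and 3 lower. Of 18 genes of proteases that cut matrix and their inhibitors, 10 were higher and 3 lower (13 and 2 with Isotype replicates 1 and 2 alone). Mmp3, a stromal protease, stood at 1.08, 0.673, 2.59 and 1.74 CPM in Normal and 85.7, 54.2, 52.2 and 11.5 in Isotype (log2 fold change 4.95 ± 1.00, adjusted p = 0.000842). Mmp7, an epithelial protease, had 3 counts in Normal and 104, 58.6, 138 and 51.3 CPM in Isotype, a ratio of 479.5 with a 95% interval for counting error of 164 to 2327 (adjusted p = 3.26e-05). Their inhibitors parted: Timp1 rose from between 1.68 and 4.11 to between 5.80 and 41.6 CPM (log2 fold change 3.04 ± 0.62, adjusted p = 0.00068) and Timp3 fell from between 122 and 161 to between 56.5 and 95.4 CPM (log2 fold change -0.98 ± 0.19, adjusted p = 0.000279). Timp2 and Mmp15 were the other members called lower, Timp2 not with Isotype replicates 1 and 2 alone.

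Of 14 endothelial genes, 1 was higher and 4 were lower, where 20.9% and 20.3% of all genes tested were. With Isotype replicates 1 and 2 alone 2 were higher and 3 lower. Pecam1 stood at 40.2, 53.5, 57.8 and 56.9 CPM in Normal and 75.7, 36, 44.6 and 30.7 in Isotype (log2 fold change -0.16 ± 0.22, adjusted p = 0.594), and Cdh5, the junction cadherin, did not pass either (log2 fold change 0.17 ± 0.27, adjusted p = 0.634). Cldn5, a claudin of tight vessel walls, fell from 21.2, 21.9, 26.8 and 18.5 CPM in Normal to 8.38, 3.54, 7.98 and 4.79 in Isotype (log2 fold change -1.85 ± 0.43, adjusted p = 0.00171), and Lyve1 of lymphatic vessels changed by -1.05 ± 0.23 (adjusted p = 0.00123). Emcn and Ackr1 were the others called lower, Ackr1 not without Normal replicate 2 or 3, without Isotype replicate 2, 3 or 4, or with Isotype replicates 1 and 2 alone. Eng was higher (log2 fold change 0.68 ± 0.20, adjusted p = 0.00859), but not without Isotype replicate 1. Fat cell genes were lower in 8 of 9 cases, the lowest median of the lists with 3 or more members tested (-3.46), and in 6 with Isotype replicates 1 and 2 alone. Adipoq, the hormone adiponectin (chromosome 16, 23146536 to 23158028), stood at 24.7, 19.8, 26 and 22 CPM in Normal and 2.09, 2.12, 1.73 and 0.184 in Isotype (log2 fold change -3.94 ± 0.93, adjusted p = 0.00249). Pck1, an enzyme of glycerol and glucose synthesis also made by the colon epithelium, stood at 135, 187, 206 and 319.5 CPM in Normal and 4.63, 13.8, 18.9 and 22.6 in Isotype (log2 fold change -3.82 ± 0.73, adjusted p = 0.00054). Lpl, which macrophages also make, was the member called higher (log2 fold change 1.68 ± 0.45, adjusted p = 0.00581). Of 10 skeletal muscle genes 2 had enough counts to be tested, and both were lower, Ckm by -2.63 ± 0.48 and Acta1 by -1.34 ± 0.36 (adjusted p = 0.000233 and adjusted p = 0.00504). None of 3 squamous epithelium genes passed, and of 5 red blood cell genes Alas2 did (log2 fold change 2.82 ± 1.03, adjusted p = 0.0328), but not without Normal replicate 1, 2 or 3 or with Isotype replicates 1 and 2 alone.

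**Figure D5:**
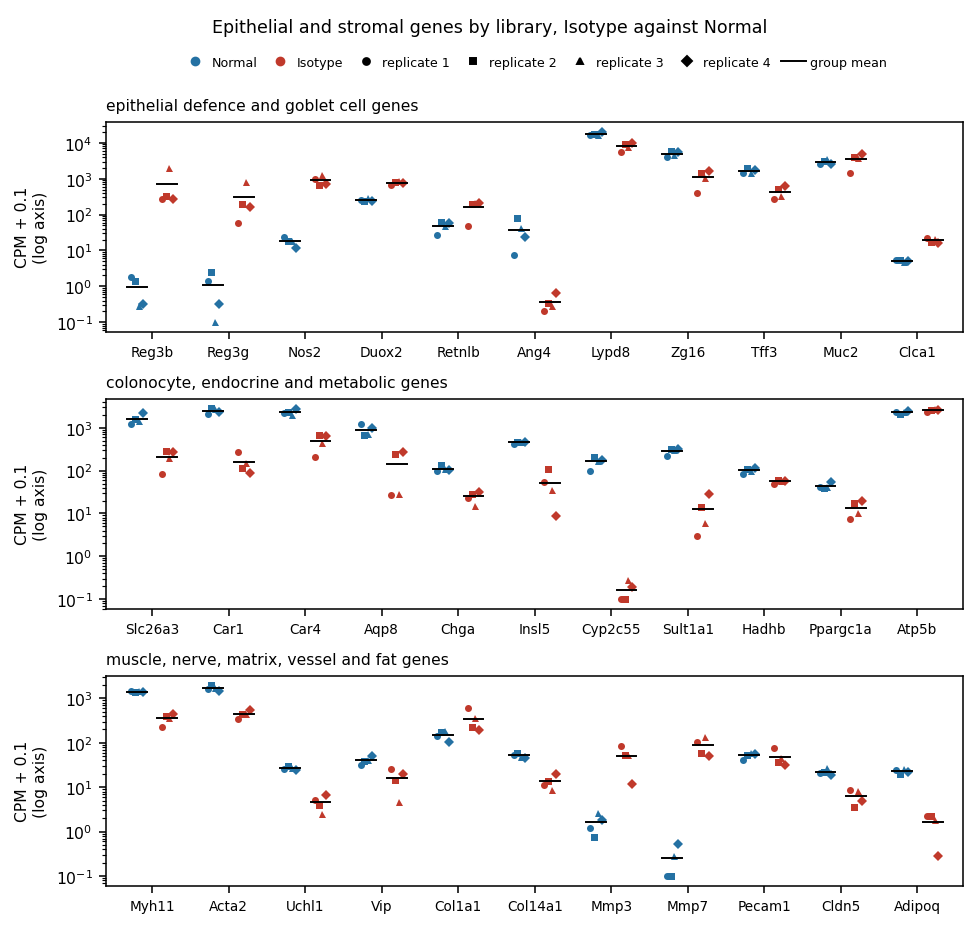
CPM plus 0.1 on a log axis for 33 epithelial and stromal genes, 1 point per library with the replicate as its shape, Normal in blue and Isotype in red, and a bar at each group mean. Reg3b, Reg3g, Nos2, Mmp3 and Mmp7 lie higher in Isotype and Cyp2c55, Sult1a1, Car1, Myh11 and Adipoq lower without overlap, while Muc2, Atp5b and Pecam1 overlap.

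The direct comparison of Isotype with Vehicle asked which of these genes set the antibody arm apart from other mice with the same colitis. It gave 442 genes of 14773 (2.99% called), 195 higher in Isotype (1.32%) and 247 lower (1.67%), of which 108 differed by more than 2-fold. Of the 616 list members tested, 437 differed between Isotype and Normal and 5 between Isotype and Vehicle: Trbc1, Serping1, Tjp1, Ndufv1 and Mmp12. Trbc1, a constant region of the receptor's beta chain, was lower in Isotype (log2 fold change -1.29 ± 0.36, adjusted p = 0.0492), as was Mmp12, a macrophage elastase (-1.45 ± 0.39, adjusted p = 0.0463). Tjp1, a scaffold of tight junctions, and Ndufv1, a subunit of complex I, were higher (0.60 ± 0.16 and 0.49 ± 0.14, adjusted p = 0.0418 and adjusted p = 0.049), and Serping1, the inhibitor of C1, was lower (-0.62 ± 0.16, adjusted p = 0.0397). All 5 lay close to the threshold. Whether each kept its call with the length offset or in the smaller fits given below was not examined. None of the 151 key or extreme genes called between Isotype and Normal passed in this comparison by edgeR. A missed threshold does not show that the arms are alike. S100a8, for example, differed from Vehicle by 0.12 ± 0.68 and Ifng by -0.49 ± 0.68, while tighter genes allowed closer limits, such as Duox2 at 0.18 ± 0.16 and Myh11 at 0.22 ± 0.34. The class II genes H2-Ab1, H2-Aa and Cd74 had log2 fold changes of Isotype minus Vehicle of -0.45 ± 0.14, -0.45 ± 0.14 and -0.45 ± 0.15 and did not pass (adjusted p = 0.0798, adjusted p = 0.0842 and adjusted p = 0.0892).

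The 8 genes with the smallest p against Vehicle were Med11, Gm14165, Gm15427, Gm7206, Rpl35, Gm13408, Cebpzos and Gm13680, each lower in Isotype. Med11, a subunit of the Mediator complex that links transcription factors to RNA polymerase, differed by -1.17 ± 0.15 (adjusted p = 0.000242), and Rpl35, a protein of the large ribosomal subunit, by -1.28 ± 0.19 (adjusted p = 0.00138). The genes whose names start with Gm are predicted, and reads of near-identical copies may be split among them, which leaves their values uncertain. These differences moved with transcript length. Genes were placed in 5 bins of transcript length, and the median level of the longest was compared with that of the shortest. The difference was 0.17 ± 0.08 on the log2 scale in Isotype, 0.17 ± 0.09 in Normal and -0.39 ± 0.12 in Vehicle (SD, n = 4 each). Across 14628 genes, which are not independent replicates, Spearman's rho between transcript length and log2 fold change was 0.505 for Isotype minus Vehicle and -0.012 for Isotype minus Normal. With an offset for length 27 genes differed from Vehicle, and 6167 from Normal. With Isotype replicates 1 and 2 alone 11 genes differed from Vehicle. The count fell to 263, 150 and 136 without Vehicle replicate 1, 3 or 4, and to 188 and 128 without Isotype replicate 2 or 4.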

How the data were processed

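Colon RNA was enriched for poly(A) and sequenced on an Ion Torrent instrument, per the labels' protocols. The authors deposited whole-number read counts per gene symbol, 1 file per library, and the submitters' processing notes name the mm10 genome. The sources used here do not give the aligner, the counter or the annotation. Each library was grouped by its own file, since 16 of 24 column names of the series table disagree with the files.

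Counts of all 24 libraries (3052940 to 10587555 each) were tested with edgeR 4.0.16 (R 4.3.3): genes with enough counts for the smallest group kept (14773), TMM factors, a robust quasi-likelihood fit with 1 coefficient for each of 6 groups, and Benjamini-Hochberg adjustment, called at 0.05. Standard errors are the log2 fold change divided by the root of its F statistic. Every adjusted p is from this fit unless another tool is named. For a gene at 0 counts in a group a lower bound was computed with 3 counts in their place, summed over its 4 libraries, and for 1 to 3 counts a ratio with a 95% exact interval. Floors and intervals cover counting error only. On simulated counts (14899 genes, Isotype versus Normal) 34 of 50 genes raised 2-fold, 33 of 50 lowered 2-fold and 50 of 50 changed 4-fold in each direction were recovered. This simulation gave all genes the same dispersion and changed only genes of at least 5 CPM in Normal. Recovery of low genes, or of genes uneven between libraries, was therefore not tested. It also changed a far smaller share of genes than the 41.2% called here, evenly up and down. Normalization under so wide a change was not tested. Calls among unchanged genes are not given here. Gene positions are from GENCODE M21, which matched 93.37% of symbols.

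Named genes are the 10 highest and 10 lowest fold changes among genes called with a mean of at least 5 CPM in the higher group, no overlap and no predicted name; from each of 47 lists its key genes, up to 3 members with the smallest p and members behind counts of 5 or fewer; and, against Vehicle, the 8 smallest p. Further list members were named after their values were seen. The groups and the lists were chosen with earlier results of these data known. Alternatives tried were RLE factors, library totals alone, DESeq2 1.42.0, other filters, only the 8 libraries compared, the replicate number as a block, leaving out each library, other groupings for doubtful labels, a length offset, thinning to the smallest total and, added after the data were seen, Isotype replicates 1 and 2 alone. A few genes of the lists are counted but not reported here by name.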

Additional observations from a re-analysis of the deposited data

Results flagged for a closer look

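With 4 libraries a group, a library was singled out when its gap to the nearest of the others divided by the group's range exceeded Dixon's 95% critical value, and 100 such groups of values were tested, of which chance would single out about 1 in 20. In Isotype replicate 1 the epithelial antimicrobial and defence genes summed to 10285 CPM, against 17808 to 18924 CPM in the other 3 Isotype libraries. In the same library the pancreas genes summed to 5632 CPM, against 65.0 to 182 CPM, and the squamous epithelium genes to 16 CPM, against 4.16 to 5.71 CPM. In Isotype replicate 3, transcripts of the mitochondrial genome made up 4.59% of counts, against 1.99 to 2.18% in the other 3 Isotype libraries. The 4 Normal libraries had 3.6 to 6.24%.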

How the results depend on the processing

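The 6085 genes called between Isotype and Normal became 6070 with RLE factors, 6077 with library totals alone, 6401 with DESeq2, 5867 without a filter, 5074 with a mean of at least 5 CPM, 5283 with only the 8 libraries compared, 6167 with the length offset and 5234 after thinning. Leaving out 1 library gave 4901 to 5798 genes (2483 to 3028 higher, 2418 to 2798 lower). Libraries with the same group by both labellings, 2 against 2, gave 1033 (622 higher, 411 lower), a fit with fewer samples. Counts of many lists fell in it. There 0 enteroendocrine genes and 0 neuron and glia genes were called lower, against 11 each in the main fit. Cell cycle genes called higher were 1 against 23, and B and plasma cell genes 0 against 6. Surface colonocyte genes called lower were 3 against 13. Counts of the T cell receptor, GTPase, both MHC and smooth muscle lists stayed within 1.5-fold. The table's column names gave 262 (78 higher, 184 lower), and under them 6 gene changes turned: Ighg1 -0.68, Cd8a -0.34, Igj -0.35, Mzb1 -0.60, Igha -0.46 and Igkc -0.75. The 442 genes called between Isotype and Vehicle became 802 with DESeq2 (407 higher, 395 lower), 267 without a filter (124 higher, 143 lower), 162 by the table's column names (36 higher, 126 lower), 27 with the length offset (8 higher, 19 lower), 250 after thinning (90 higher, 160 lower), 11 with Isotype replicates 1 and 2 alone (2 higher, 9 lower) and 128 to 493 when 1 library was left out (32 to 259 higher, 85 to 234 lower). Other than the length offset and the smaller groups, the cause of these shifts was not tested. No Vehicle library has the same group by both labellings, so that comparison was not run there.

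Of 352 named genes, 342 of the 344 with a value kept their direction and call with DESeq2, 351 with RLE factors, 349 with the length offset and 314 with Isotype replicates 1 and 2 alone. With the libraries whose group both labellings share, 187 of 345 did and 158 lost the call, and by the table's column names 64 of 352 did, 282 lost it and 6 turned. Leaving out a library ended the call of between 10 and 25 of them. Samples share only a replicate number: same-numbered Isotype and Normal libraries had correlations of their deviations of 0.18, -0.107, -0.083 and 0.097, and not every library correlated best with its own number. With the replicate number as a block 5882 genes differed from Normal and 375 from Vehicle. Depth limits genes at the edge of detection, such as Il17a and Il22, which were not tested.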

Other observations

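Genes that mark the distal position along the gut differed between libraries as well as between groups. Hoxa13, a hindgut patterning gene, stood at 56.5, 82.4, 60.9 and 55.8 CPM in Normal and 21.5, 40.2, 32.6 and 44.1 in Isotype (log2 fold change -0.88 ± 0.23, adjusted p = 0.00421 by edgeR). Hoxb13, its paralog, passed (-0.74 ± 0.27, adjusted p = 0.0338), but not without Normal replicate 1, 3 or 4, without Isotype replicate 1 or 3, or with Isotype replicates 1 and 2 alone. Hoxd13 did not pass (adjusted p = 0.759) and varied widely within both groups, at 79.8, 56.8, 32.5 and 32 CPM in Normal and 16.2, 54.4, 3.64 and 78 in Isotype. Isotype replicates 1 and 3 were the lowest of their group for Hoxa13, Hoxb13 and Hoxd13. The intestinal factors Cdx1 and Cdx2 did not pass (0.20 ± 0.15 and 0.25 ± 0.24). Where along the distal colon each sample was taken was not analysed here, and the part of position in other results was not tested.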
